A study of Mus musculus with 9 samples.

Results

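Levels of 10 genes that make, read or remove the second messengers of the phospholipase C and cyclic AMP pathways were compared between Sfpq homozygous mutant, Sfpq heterozygous mutant and control cerebral cortex. The genes were fixed by name: the phospholipases Plcb1, Plcb3 and Plcb4, the calcium channel Itpr1, the protein kinases Prkca and Prkce, the adenylyl cyclase Adcy1 and the phosphodiesterases Pde4b, Pde4d and Pde1c. They were chosen with earlier results of these data known, so the share of them called is a description and no test of the set. They have 22 of the 30978 RefSeq transcripts in each table and are 10 of 23201 named genes. Each gene was read from the transcript with the highest mean level, and all 10 passed the filter of a mean of at least 0.5 RPKM (reads per kilobase of transcript, scaled to the size of the library).

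The cortex came from E13.5 mouse embryos, a stage when radial glia divide and the first cortical neurons form, of mixed strain background (C57BL/6+C57BL/6J+CBA in all 3 groups). There were 3 libraries labelled sfpq_homo_KO, 3 labelled sfpq_hetero_KO and 3 labelled control. The note on RNA extraction lists the heterozygous genotype a second time and not the homozygous one, and the groups here follow the genotype label of each sample. Sfpq encodes a nuclear RNA-binding protein, and the study's title names long neuronal genes and transcriptional elongation as its subject. The sources used here do not say how the allele was made, in which cells Sfpq was removed or whether controls carry a Cre or a floxed allele. The libraries kept RNA with and without a poly(A) tail after ribosomal RNA removal. The libraries carry replicate numbers within each genotype, and the p-values measure the spread between libraries. Whether each library is a separate embryo was not established here.

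As background, Gq-coupled receptors activate phospholipase C beta, which splits a membrane phosphoinositide into inositol trisphosphate (IP3) and diacylglycerol. IP3 opens the IP3 receptor and lets calcium out of the endoplasmic reticulum, while diacylglycerol, with or without calcium, activates protein kinase C. Adenylyl cyclases make cyclic AMP and phosphodiesterases break it down, and calcium with calmodulin acts on some enzymes of both kinds, Adcy1 and Pde1c among them. In the developing cortex these messengers are known to act in progenitor division, neuronal migration and axon growth.

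RefSeq promoters were at hand for 8 of the 10 genes (all but Prkce and Itpr1), with 14 promoters in all. Shown are those at which the measured transcript starts, for the genes whose level differed between homozygous and control cortex, first the 3 that were lower and then the 2 that were higher. Each runs 5′ to 3′ from 250 bases before to 50 bases after the start, in the coordinates of the RefSeq table (GRCm38.p6). Capitals mark a GC box (GGGCGG, searched on both strands), the one motif of those searched that any of these 5 held.
Plcb1 promoter, chr2:134785914-134786213, plus strand: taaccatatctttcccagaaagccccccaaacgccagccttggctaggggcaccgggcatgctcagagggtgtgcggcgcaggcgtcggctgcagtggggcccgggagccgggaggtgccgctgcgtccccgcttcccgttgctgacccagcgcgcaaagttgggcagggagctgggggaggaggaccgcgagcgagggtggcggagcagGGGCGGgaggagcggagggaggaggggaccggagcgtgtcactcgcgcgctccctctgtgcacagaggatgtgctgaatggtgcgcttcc
Prkca promoter, chr11:108343839-108344138, minus strand: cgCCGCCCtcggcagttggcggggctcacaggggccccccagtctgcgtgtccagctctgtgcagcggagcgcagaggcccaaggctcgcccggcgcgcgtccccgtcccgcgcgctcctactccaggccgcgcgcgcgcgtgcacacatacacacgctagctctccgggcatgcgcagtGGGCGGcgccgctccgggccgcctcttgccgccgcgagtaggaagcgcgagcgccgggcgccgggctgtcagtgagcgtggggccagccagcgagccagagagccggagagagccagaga
Pde4d promoter, chr13:108653927-108654226, plus strand: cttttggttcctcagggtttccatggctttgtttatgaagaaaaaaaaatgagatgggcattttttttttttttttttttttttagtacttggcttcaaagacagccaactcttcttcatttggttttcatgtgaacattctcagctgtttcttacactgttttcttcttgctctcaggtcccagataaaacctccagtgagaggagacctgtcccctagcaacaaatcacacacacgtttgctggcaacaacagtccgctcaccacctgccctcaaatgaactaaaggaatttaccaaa
Plcb3 promoter, chr19:6969765-6970064, minus strand: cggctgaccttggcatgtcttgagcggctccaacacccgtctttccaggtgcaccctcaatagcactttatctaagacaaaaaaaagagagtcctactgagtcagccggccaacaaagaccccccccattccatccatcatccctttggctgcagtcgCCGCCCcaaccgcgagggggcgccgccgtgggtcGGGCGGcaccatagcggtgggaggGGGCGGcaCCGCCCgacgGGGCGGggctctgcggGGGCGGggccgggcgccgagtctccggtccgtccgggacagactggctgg
Pde1c promoter, chr6:56362343-56362642, minus strand: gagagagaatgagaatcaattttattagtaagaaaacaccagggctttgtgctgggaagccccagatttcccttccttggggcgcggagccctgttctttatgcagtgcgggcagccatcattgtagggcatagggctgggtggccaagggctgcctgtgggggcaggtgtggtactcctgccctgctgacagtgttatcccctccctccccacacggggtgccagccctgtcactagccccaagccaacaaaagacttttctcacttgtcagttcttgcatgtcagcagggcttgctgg

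In base composition the promoters of genes that fell and of genes that rose overlapped. The lower genes Plcb1 and Prkca had 69.67% and 75.33% GC with 26 and 42 CpG dinucleotides, and the lower gene Pde4d had 39.67% GC with 2. The higher gene Plcb3 had 67% GC with 27 CpG dinucleotides, and the higher gene Pde1c had 56% GC with 4. Over all 32851 promoters of the table the median was 52.67% GC and 7 CpG dinucleotides. GC boxes numbered 1 in Plcb1, 2 in Prkca and 6 in Plcb3, with none in the windows of Pde4d and Pde1c. A GC box was present in 35.66% of all promoters. The full cyclic AMP response element (TGACGTCA) was in none of the 14 promoters, against 1.79% of all promoters, and TATAAA was in none, against 13.62%. The shorter motif TGACG, which the full element contains, was found only at 1 upstream start of Pde4b at which no measured transcript begins, and 20.81% of all promoters hold it.

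In homozygous cortex 5 of the 10 genes fell and 2 rose against control. Plcb1, Plcb4, Prkca, Prkce and Pde4d were lower, Plcb3 and Pde1c were higher, and Itpr1, Adcy1 and Pde4b did not pass the test. Calls are limma adjusted p-values under 0.05 on log2(RPKM + 0.5), a scale on which the change of low genes is understated. Of all 12159 genes tested 19.9% were called lower and 14.4% higher, 34.3% in either direction, and upper quartile scaling moved the split of all calls from 2423 lower and 1747 higher to 2286 lower and 2216 higher. Quantile normalization gave 2191 lower and 2556 higher, and the 7 signalling genes stayed called in the same directions under both. The median log2 change was -0.36 over the 10 genes and -0.01 over all genes tested. The homozygous and control libraries did not overlap in 7 of the 10 genes, as in 46.2% of all genes. In heterozygous cortex none of the 10 was called against control.

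Sfpq itself was measured first as a check of the labels. Its most abundant transcript, a non-coding one, was at 26.1, 28.6 and 27.6 RPKM in the 3 homozygous libraries, 185, 163 and 169 RPKM in the heterozygous and 184, 202 and 218 RPKM in the control libraries. The log2 change against control was -2.85 ± 0.07 (SE; limma adjusted p = 1.224e-09) in homozygous cortex and -0.22 (limma adjusted p = 0.709) in heterozygous cortex. Sfpq thus set the homozygous libraries apart, while the heterozygous and control libraries overlapped, so this transcript does not check the heterozygous label. Steps between low values put the depth at about 169.5 to 205.75 M reads a library, an estimate that rests on transcript lengths from another annotation. Behind a value of the 10 measured transcripts lay about 459 reads (Pde4d) to 13076 reads (Itpr1).

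**Figure D1:**
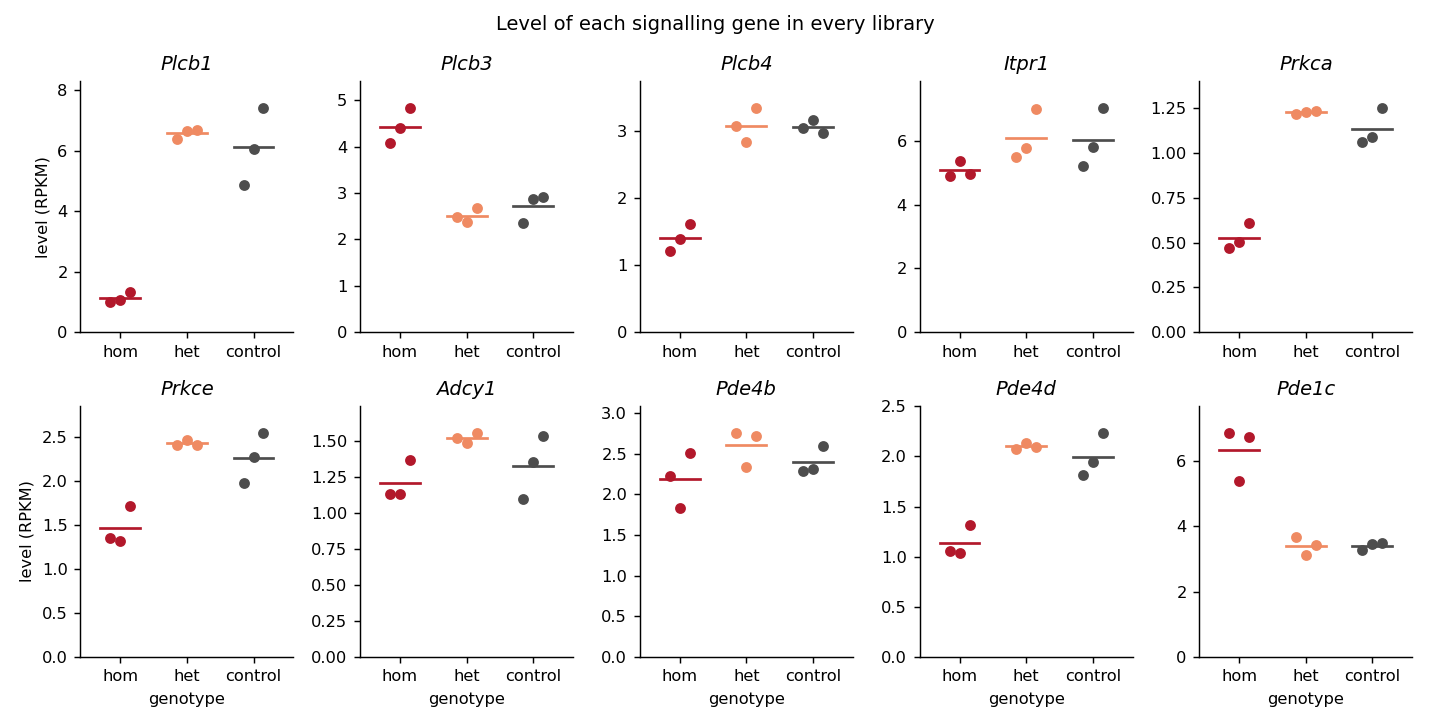
RPKM of the measured transcript of each of the 10 signalling genes in the homozygous (hom), heterozygous (het) and control libraries; points are libraries and lines are means of 3. The homozygous points of Plcb1, Plcb4, Prkca, Prkce and Pde4d lie below all control points, and those of Plcb3 and Pde1c lie above them.

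The phospholipases C beta moved in opposite directions. Plcb1, with the highest mean of the 10 genes in control cortex (where its libraries overlap those of Itpr1) and an isoform known for its high level in forebrain neurons, was at 0.988, 1.05 and 1.34 RPKM in homozygous, 6.40, 6.65 and 6.69 RPKM in heterozygous and 4.86, 6.06 and 7.42 RPKM in control libraries. No homozygous library came near a library of the other groups. Means were 1.13 ± 0.189 RPKM in homozygous and 6.11 ± 1.28 RPKM in control cortex (SD, n = 3 each), so homozygous cortex held 18.44% of the control level. On the log2 scale the change was -2.01 ± 0.13 (SE; limma adjusted p = 6.925e-07). Part of this transcript, 2.54% of its exonic bases, overlaps an antisense gene, 9630028H03Rik.

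Plcb4, an isoform best known from the cerebellum and retina, was at 1.21, 1.39 and 1.61 RPKM in homozygous, 3.07, 2.83 and 3.35 RPKM in heterozygous and 3.05, 3.16 and 2.98 RPKM in control libraries. Again the homozygous libraries stood apart from both other groups. The mean was 1.403 ± 0.203 RPKM in homozygous and 3.06 ± 0.0931 RPKM in control cortex (SD, n = 3 each), a log2 change of -0.91 ± 0.09 (SE; limma adjusted p = 2.237e-05). Plcb1 and Plcb4 lie beside each other on chromosome 2, with 3 long non-coding RNA genes between them.

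Plcb3, the isoform that G beta-gamma subunits activate strongly, was at 4.07, 4.40 and 4.84 RPKM in homozygous, 2.47, 2.38 and 2.68 RPKM in heterozygous and 2.35, 2.88 and 2.92 RPKM in control libraries. Every homozygous value lay above every other one. The homozygous mean was 4.44 ± 0.383 RPKM and the control mean 2.72 ± 0.320 RPKM (SD, n = 3 each), or 163.3% of control (log2 change 0.62 ± 0.09 SE; limma adjusted p = 0.000407).

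The make-up of the family differed accordingly. Plcb3 gave 63.34% of the summed RPKM of Plcb1 to Plcb4 in homozygous cortex, against 20.53% in heterozygous and 22.82% in control cortex. Plcb1 gave 16.0% in homozygous, 53.86% in heterozygous and 50.91% in control cortex. Plcb4 held 19.95% in homozygous cortex, against 25.21% in heterozygous and 25.99% in control cortex, and Plcb2, which is known mainly from blood cells, gave 0.718% in homozygous and 0.281% in control cortex. The sum of the family was 7.02 ± 0.770 RPKM in homozygous, 12.2 ± 0.461 RPKM in heterozygous and 11.9 ± 1.55 RPKM in control cortex (SD, n = 3 each). Plcb1 over Plcb3 within a library was 0.242, 0.239 and 0.277 in homozygous, 2.59, 2.80 and 2.50 in heterozygous and 2.07, 2.10 and 2.54 in control libraries. The exact permutation test (two-sided) of this ratio gave p = 0.1 for homozygous against control cortex, the smallest that 3 against 3 libraries allow, and p = 0.2 for heterozygous against control cortex.

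**Figure D2:**
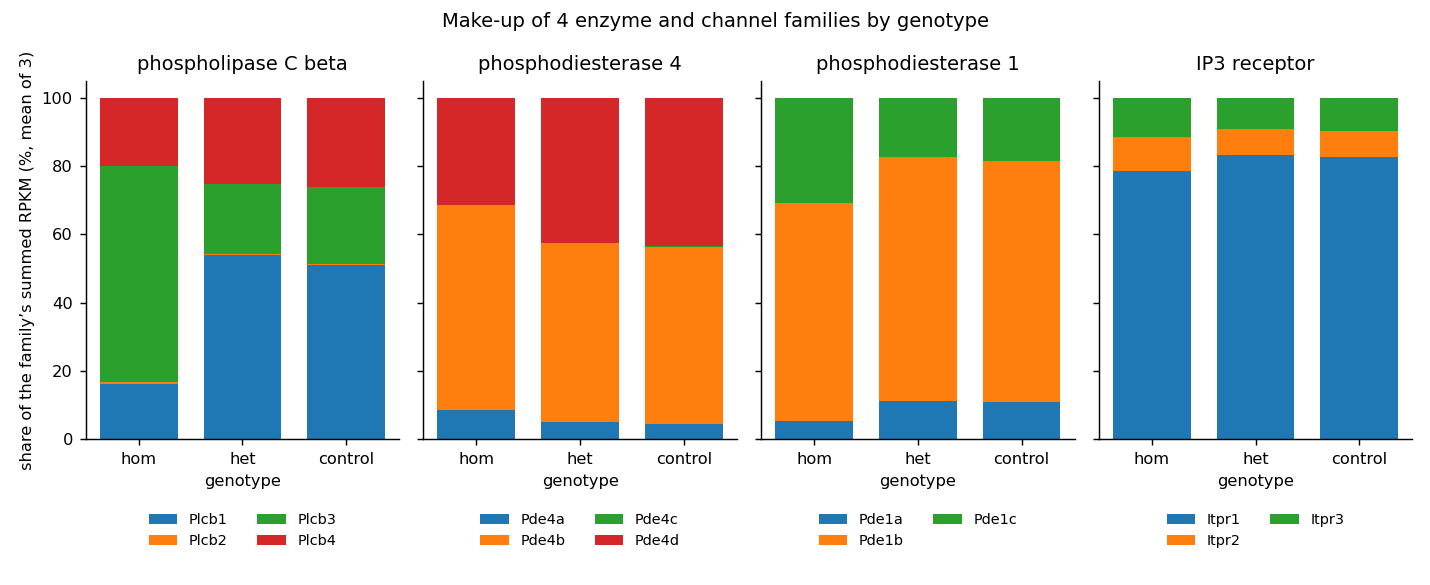
Share (%) of each member in the summed RPKM of its family, as the mean of 3 libraries, in homozygous (hom), heterozygous (het) and control cortex. Plcb3 makes 63.34% of the phospholipase C beta sum in homozygous cortex and 22.82% in control cortex, and Pde1c makes 30.77% of the phosphodiesterase 1 sum in homozygous and 18.32% in control cortex.

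Itpr1, the IP3-gated calcium channel that predominates in neurons, was at 4.90, 5.35 and 4.97 RPKM in homozygous, 5.48, 5.76 and 6.98 RPKM in heterozygous and 5.21, 5.80 and 7.03 RPKM in control libraries. The homozygous and control libraries overlapped. The log2 change was -0.22 ± 0.11 (SE), with a 95% interval of -0.46 to 0.03 (limma adjusted p = 0.155). Exons of this transcript overlap the antisense genes Gm44040 and Gm44101 over 2.93% of their bases. Itpr1 gave 78.6% of the summed RPKM of the 3 IP3 receptor genes in homozygous and 82.72% in control cortex, and neither Itpr2 (log2 change 0.11) nor Itpr3 (log2 change 0.06) was called.

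Both protein kinase C genes of the 10 were lower. Prkca, which needs calcium and diacylglycerol, was at 0.468, 0.504 and 0.612 RPKM in homozygous, 1.22, 1.23 and 1.24 RPKM in heterozygous and 1.06, 1.09 and 1.25 RPKM in control libraries. It averaged 0.528 ± 0.0747 RPKM in homozygous and 1.14 ± 0.102 RPKM in control cortex, 46.48% of control (SD, n = 3 each; log2 change -0.67 ± 0.08 SE, limma adjusted p = 9.326e-05). Prkce, which responds to diacylglycerol without calcium, was at 1.35, 1.32 and 1.71 RPKM in homozygous, 2.41, 2.47 and 2.41 RPKM in heterozygous and 1.98, 2.27 and 2.55 RPKM in control libraries. For neither kinase did a homozygous library overlap a control or a heterozygous one. Prkce averaged 1.46 ± 0.219 RPKM in homozygous and 2.27 ± 0.285 RPKM in control cortex (SD, n = 3 each), a log2 change of -0.50 ± 0.10 (SE; limma adjusted p = 0.00266).

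By its log2 change Prkca fell further than Prkce, but the 95% intervals overlapped (-0.85 to -0.49 for Prkca and -0.72 to -0.28 for Prkce). The ratio of these kinases was higher in every homozygous library than in any other library. With 3 libraries a group its permutation test cannot pass the threshold used for calls, so a difference in the size of the fall was not established. Prkce over Prkca was 2.77 ± 0.131 in homozygous, 1.98 ± 0.0275 in heterozygous and 1.99 ± 0.115 in control cortex (SD, n = 3 each; exact permutation p = 0.1 for homozygous against control, the smallest possible). Of the other protein kinase C genes Prkcb, a calcium-dependent isoform, fell (log2 change -0.92 ± 0.11 SE; limma adjusted p = 9.523e-05) and Prkcd, which like Prkce needs no calcium, rose (0.56 ± 0.10 SE; limma adjusted p = 0.00154). Prkci, the atypical isoform that gave over 50% of the family's RPKM in every library, had a log2 change of 0.13 (limma adjusted p = 0.0989). The summed RPKM of the 9 genes was 41.65 ± 1.37 in homozygous, 40.0 ± 1.09 in heterozygous and 40.1 ± 3.12 in control cortex (SD, n = 3 each).

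Adcy1, the calmodulin-stimulated adenylyl cyclase known for its part in the patterning of sensory cortex, was at 1.13, 1.13 and 1.37 RPKM in homozygous, 1.52, 1.49 and 1.56 RPKM in heterozygous and 1.10, 1.36 and 1.53 RPKM in control libraries. Control libraries covered the whole homozygous range. The log2 change was -0.09 ± 0.10 (SE), with a 95% interval of -0.31 to 0.12 (limma adjusted p = 0.510). Against heterozygous cortex, whose libraries did not overlap the homozygous ones, it was -0.24 ± 0.10 (SE; limma adjusted p = 0.0804). This comparison crossed the threshold under quantile normalization (limma adjusted p = 0.0419), with the replicate number as a block (0.0459) and without control replicate 1 (0.0468), within a range of 0.0419 to 0.207 over 20 alternatives.

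The phosphodiesterases split 3 ways. Pde4d, which is specific for cyclic AMP, was at 1.06, 1.04 and 1.32 RPKM in homozygous, 2.07, 2.13 and 2.10 RPKM in heterozygous and 1.81, 1.94 and 2.24 RPKM in control libraries, with no overlap of the homozygous libraries. It averaged 1.14 ± 0.154 RPKM in homozygous and 2.00 ± 0.218 RPKM in control cortex, 57.02% of control (SD, n = 3 each; log2 change -0.61 ± 0.09 SE, limma adjusted p = 0.000400). The single transcript of Pde4d in the tables spans 1297.3 kb, and Pde4d is known for many other transcripts, which were not analysed here.

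Pde4b, its close relative, was at 2.22, 1.83 and 2.51 RPKM in homozygous, 2.76, 2.34 and 2.72 RPKM in heterozygous and 2.28, 2.31 and 2.59 RPKM in control libraries. All 3 groups overlapped. The log2 change was -0.11 ± 0.10 (SE), with a 95% interval of -0.34 to 0.11 (limma adjusted p = 0.437). Pde4b over Pde4d was 1.92 ± 0.166 in homozygous, 1.24 ± 0.127 in heterozygous and 1.20 ± 0.0512 in control cortex (SD, n = 3 each; exact permutation p = 0.1 for homozygous against control, the smallest possible).

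Pde1c, a calmodulin-dependent phosphodiesterase that breaks down cyclic AMP and cyclic GMP, was at 6.87, 5.40 and 6.72 RPKM in homozygous, 3.68, 3.11 and 3.42 RPKM in heterozygous and 3.26, 3.45 and 3.49 RPKM in control libraries. The homozygous libraries lay above all others. It averaged 6.33 ± 0.811 RPKM in homozygous and 3.40 ± 0.125 RPKM in control cortex, 186.2% of control (SD, n = 3 each; log2 change 0.80 ± 0.09 SE, limma adjusted p = 7.487e-05). Pde1a, a relative with the same calmodulin control, fell (-0.68 ± 0.10 SE; limma adjusted p = 0.000256), and Pde1b, the most abundant of this family, was at 13.2 ± 0.946 RPKM in homozygous and 13.3 ± 2.11 RPKM in control cortex (SD, n = 3 each). Pde1c over Pde1a was 6.99, 4.39 and 6.56 in homozygous, 1.56, 1.59 and 1.52 in heterozygous and 1.77, 1.72 and 1.55 in control libraries (exact permutation p = 0.1 for homozygous against control). Of the 7 ratios computed between members or relatives, all gave this p for homozygous against control, 0.1 also after Benjamini-Hochberg adjustment over the 7. The ratios pair genes chosen with earlier results of these data known. They restate the changes of the single genes, and their shared p adds no support to the calls.

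**Figure D3:**
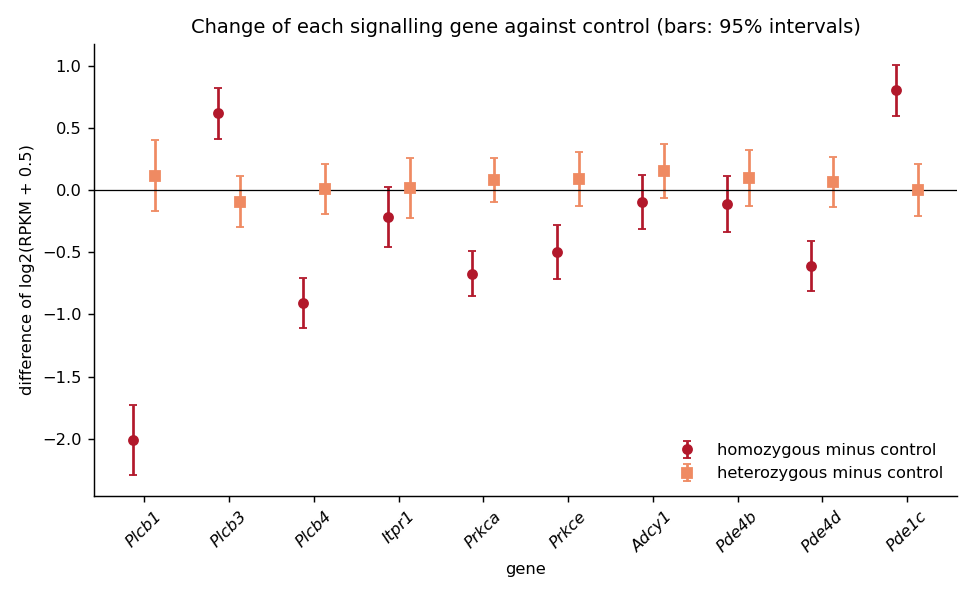
Difference of log2(RPKM + 0.5) for homozygous minus control (circles) and heterozygous minus control (squares) in each of the 10 genes, with 95% intervals from limma. The homozygous change runs from -2.01 in Plcb1 to 0.80 in Pde1c, and every heterozygous interval includes 0.

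In heterozygous cortex no change of the 10 genes was detectable at this depth. The log2 changes of the 10 genes against control had a median of 0.07 and lay between -0.09 (Plcb3) and 0.15 (Adcy1), none with an unadjusted p under 0.05. Over all 12159 genes limma called 0 in this comparison and 699 had an unadjusted p under 0.05. A fit of the 2 groups alone, and one without homozygous replicate 1, called 1 gene, Rps3a1 (log2 change -0.66 in both; limma adjusted p = 0.00336 and 0.00111), a ribosomal protein gene. The interval for heterozygous Plcb1 was -0.17 to 0.40, which excludes a fall of the homozygous size. Against heterozygous cortex the same 7 genes were called in homozygous cortex and in the same directions as against control, beside 18.3% of all genes lower and 14.6% higher, with log2 changes from -2.13 (Plcb1) to 0.80 (Pde1c). These comparisons share the homozygous libraries.

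The order of levels, which RPKM allows since it is per length, changed at its top. In control cortex it ran Plcb1, Itpr1, Pde1c, Plcb4, Plcb3, Pde4b, Prkce, Pde4d, Adcy1 and Prkca, from 6.11 to 1.14 RPKM. Libraries overlapped there between Plcb1 and Itpr1, between each neighbouring pair from Plcb3 to Pde4d, and between Adcy1 and Prkca. Homozygous cortex had the order Pde1c, Itpr1, Plcb3, Pde4b, Prkce, Plcb4, Adcy1, Pde4d, Plcb1 and Prkca, from 6.33 to 0.528 RPKM, with overlap between each neighbouring pair from Prkce to Plcb1. Plcb1 thus held rank 9 of 10 in homozygous cortex and rank 1 in control cortex.

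Span was set beside the changes because the study's title speaks of long genes. Of the 10 genes 9 span at least 100 kb in GRCm38, from 115.1 kb (Adcy1) to 1301.8 kb (Pde4d), and Plcb3 spans 21.3 kb. These are spans of the whole gene, while each level comes from 1 transcript, which can be shorter. The measured transcript of Pde4b spans 18.1 kb, that of Pde1c 292.6 kb and that of Plcb4 272.8 kb. Pde4b is thus counted as a long gene though a short transcript was measured. Among the 9 long ones 5 fell and 1 rose (median log2 change -0.50). Of all 1770 genes tested of at least 100 kb 41.8% fell and 10.6% rose (median -0.14). Plcb1, with 689.1 kb, lay lower than all but 23 of these genes, and Pde1c, with 582.7 kb, lay higher than all but 24. Over the 10 genes the log2 change and log10 span had a Pearson r of -0.48 and a Spearman rho of -0.35, a description across genes measured in the same libraries.

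**Figure D4:**
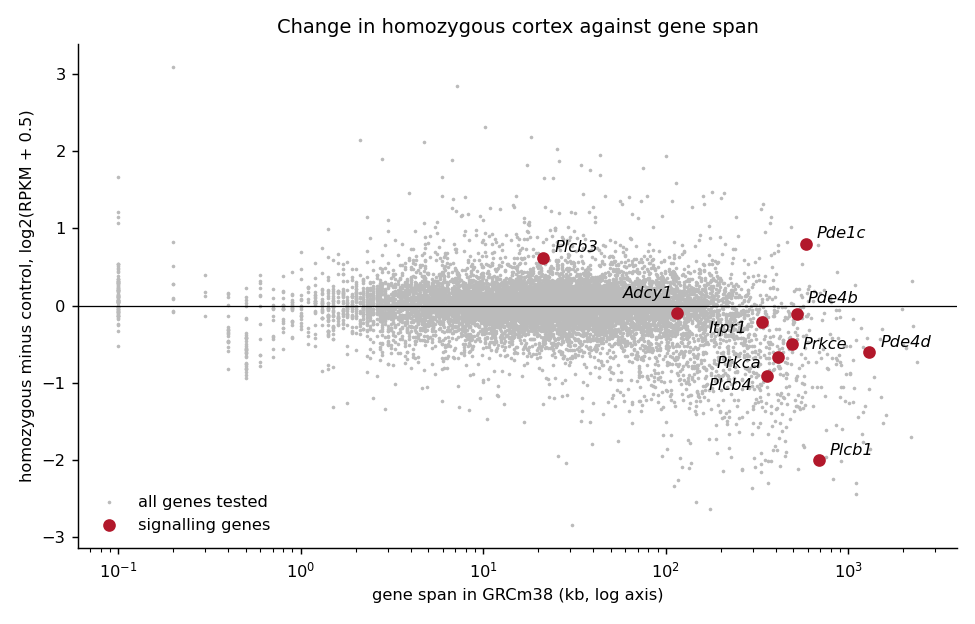
Log2 change in homozygous against control cortex (vertical axis) against the gene's span in GRCm38 (kb, log axis), for all genes tested (grey) and the 10 signalling genes (red). Plcb1 lies at -2.01 and Pde1c at 0.80, with spans of 689.1 and 582.7 kb.

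Plcb1, Pde4b and Pde1c have more than 1 transcript in the tables, and transcripts of a gene share exons, so their values are not independent. Of 22 transcripts 21 passed the filter, and 6 were called lower and 9 higher in homozygous cortex, beside 20.4% lower and 14.6% higher, 35% in all, of 17725 transcripts tested. Both transcripts of Plcb1 fell alike (log2 change -2.01 and -2.002). All 8 of Pde1c rose, by 0.66 to 0.87.

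The rise of Pde1c differed in size between transcripts, which were grouped by their 3′ ends after the values were seen. The 4 whose 3′ ends lie 30.6 to 36.4 kb before the farthest end (NM_001025568, NM_001159957, NM_001159960 and NM_001159952) rose by 0.66 to 0.69. The 4 that end within 12.3 kb of it rose by 0.78 to 0.87. In a fit of the log2 difference between each transcript and the most abundant one of its gene, the 4 early-ending transcripts rose less by 0.11 to 0.14 (limma adjusted p = 0.0028 to 0.0108), in all 19 alternatives of this fit. Of the 11 such pairs in the 10 genes 7 were called, 5 lower and 2 higher, beside 10.1% of 5428 pairs tested, 4.5% lower and 5.56% higher. The other 3 calls were differences of -0.02 (NM_011054), 0.07 (NM_001159956) and 0.04 (Pde4b NM_001177981), and each was lost in 8 or more of 19 alternatives, the replicate block among them.

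The 4 transcripts of Pde4b above the filter had log2 changes of -0.08 to -0.14, none called. The fifth, NM_001177983, has 1374 exonic bases spread over 301 kb, shares no exonic base with the measured transcript and ends 51.3 kb before the farthest end. It was at 0.0557, 0.127 and 0.0706 RPKM in homozygous, 0.424, 0.369 and 0.478 RPKM in heterozygous and 0.326, 0.219 and 0.228 RPKM in control libraries. All 3 groups were apart, with about 13 to 125 reads behind a value. The homozygous mean was 32.8% of the control mean, and the exact permutation test gave p = 0.1, the smallest possible, in each of the 3 comparisons. Without the filter its log2 change was -0.37 ± 0.07 (SE; limma adjusted p = 0.00561) in homozygous cortex against control, and 0.29 ± 0.07 (SE; limma adjusted p = 0.612) in heterozygous cortex. Its difference from the measured transcript did not pass (log2 -0.26 ± 0.14 SE; limma adjusted p = 0.405).

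**Figure D5:**
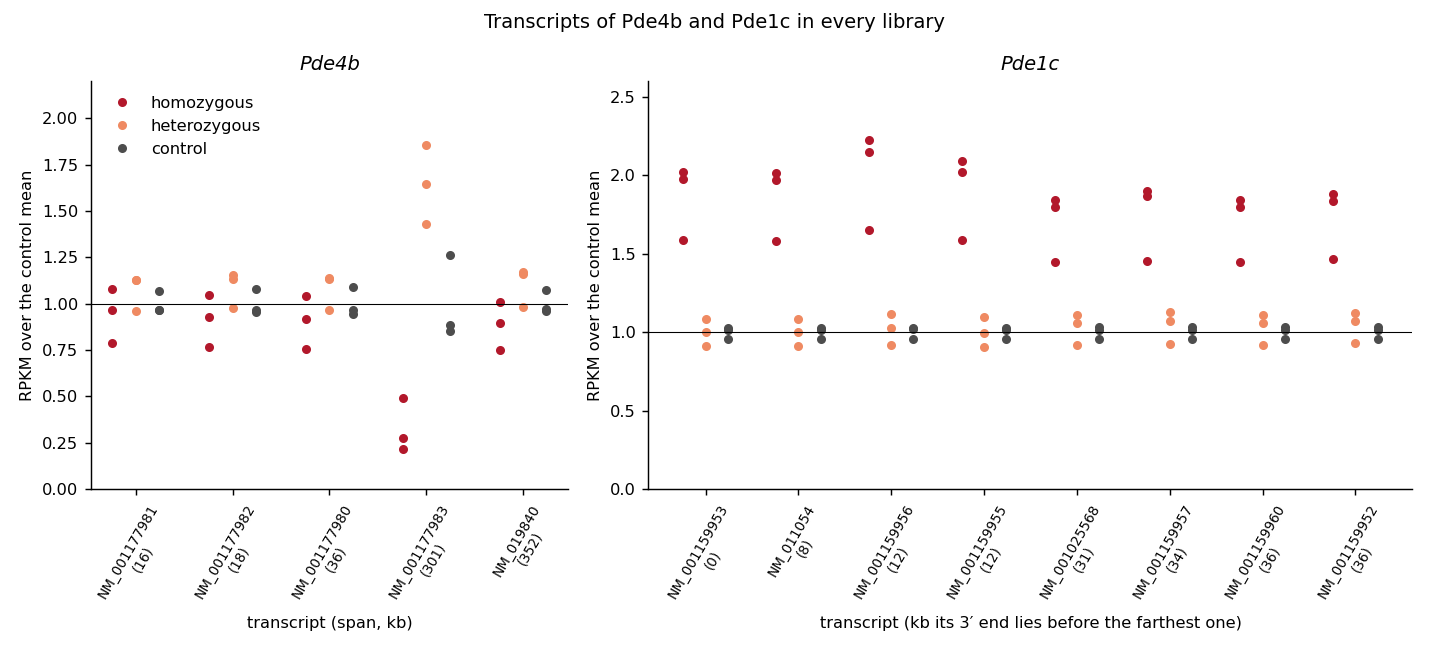
RPKM of each Pde4b and Pde1c transcript over its control mean in the homozygous, heterozygous and control libraries; each point is a library, and numbers in brackets are the transcript's span or the distance of its 3′ end from the farthest end, in kb. The low transcript NM_001177983 is below 1 in all homozygous and above 1 in all heterozygous libraries, and all 8 Pde1c transcripts are above 1 in the homozygous libraries.

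Around the 10 genes, 160 other genes of the same pathways were read as 8 lists, of which 120 genes passed the filter. In homozygous cortex 34 of these fell (28.3%) and 13 rose (10.8%), their median log2 change was -0.04, and in heterozygous cortex none was called. Of the 47 that span at least 100 kb 24 fell and 3 rose, and of the 73 shorter ones 10 fell and 10 rose. Of all genes tested 19.9% fell and 14.4% rose, and of all genes of at least 100 kb 41.8% fell and 10.6% rose. The lists are described by their counts alone, to be read against these shares.

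Upstream of the phospholipases, 2 of 7 tested Gq-coupled receptors fell and 2 rose, beside 34.3% of all genes called in either direction. The lysophosphatidic acid receptor Lpar1 fell by 0.62 and the glutamate receptor Grm5 by 0.63 on the log2 scale, and the endothelin receptor Ednrb rose by 0.28, a call lost in 2 leave-one-out fits, without homozygous replicate 3 and without control replicate 2. Of 17 tested genes of Gq proteins, other phospholipases C and their regulators of the Rgs and Grk families, 4 fell and 6 rose. One of those that fell, Rgs7, and one of those that rose, Rgs2, are regulators of G protein signalling. Plcl2, a phospholipase C-like protein that lacks enzyme activity, was at 37.7 ± 4.06 RPKM in homozygous and 13.3 ± 0.644 RPKM in control cortex (SD, n = 3 each; log2 change 1.47, limma adjusted p = 1.407e-07). Plcd4, of the delta class, was at 2.01 ± 0.623 RPKM in homozygous and 0.285 ± 0.0754 RPKM in control cortex (SD, n = 3 each; log2 change 1.65, limma adjusted p = 1.613e-05). Plce1, which small GTPases of the Ras family control, fell by 1.09.

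Downstream, 3 of 16 genes of IP3 metabolism and calcium stores fell and 1 rose, shares near or below the 19.9% and 14.4% of all genes. The calcium pump Atp2b2 fell by 0.86, the inositol monophosphatase Impa1 by 0.32 and the IP3 phosphatase Inpp5a by 0.25, the last with a limma adjusted p of 0.0207 that ranged up to 0.0724 and missed the threshold in 4 leave-one-out fits, without homozygous replicate 1 or 2 and without control replicate 2 or 3. Of 19 genes of protein kinase C and diacylglycerol metabolism 5 fell and 2 rose. Prkd1, a kinase that protein kinase C activates, fell by 2.10, Prkcb by 0.92, and the diacylglycerol kinases Dgkb and Dgki by 1.62 and 0.89. The 2 that rose were Rasgrp1, by 1.41, and Prkcd, by 0.56. Prkd1 was at 1.13 ± 0.221 RPKM in homozygous and 6.46 ± 0.270 RPKM in control cortex (SD, n = 3 each).

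In the cyclic nucleotide lists, 7 of 12 other genes named as phosphodiesterases fell and none rose, beside 19.9% of all genes lower and 14.4% higher. Of the 7 that span at least 100 kb 5 fell, beside 41.8% of all genes of that span, and of the 5 shorter ones 2 fell. Those that fell included Pde9a, which is specific for cyclic GMP and fell by 0.96, Pde1a by 0.68 and Pde10a, which takes both nucleotides, by 0.68. Of 12 other adenylyl cyclases and their G proteins 4 fell and none rose, among them the G protein subunit Gnao1 by 0.80, Adcy3 by 0.68 and Adcy2 by 0.50. Among 20 cyclic AMP effectors 5 fell and 2 rose. The protein kinase A anchor Akap6 fell by 1.58 and the regulatory subunit Prkar2b by 0.52, while another regulatory subunit, Prkar1a, rose by 0.45. Of 17 calcium and calmodulin enzymes 4 fell and none rose, with Ppp3ca, the catalytic subunit of calcineurin, down by 0.64, Camk1d by 0.62 and Camk2g by 0.43.

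Genes whose log2 levels ran most like those of 4 of the signalling genes over the 9 libraries are given as a description. For Plcb1 they were Unc5d (Pearson r 0.998), Acat1 (0.997) and Alcam (0.997), for Prkca Med27 (0.996), St3gal3 (0.996) and Nav3 (0.996), and for Pde4d Nav3 (0.997), Mtss1 (0.996) and Sorbs2 (0.994). Itpr1, which was called in no comparison, had Lrp6 (0.984), Tead1 (0.972) and Rad21 (0.967). The 9 points share library depth and genotype.

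Cell type markers moved with genotype too, and their counts are to be read against 19.9% of all genes lower and 14.4% higher. In bulk tissue fewer cells of a type and less RNA per cell cannot be told apart. Emx1, a transcription factor that marks the dorsal forebrain and was singled out here after its values were seen, was at 44.9, 40.8 and 47.1 RPKM in homozygous, 61.7, 62.2 and 58.6 RPKM in heterozygous and 59.1, 66.9 and 79.9 RPKM in control libraries, so it was present in every library. Of 8 intermediate progenitor markers 3 fell and none rose, with sums of 114.6 to 120.9 RPKM in homozygous and 160.6 to 198.9 RPKM in control libraries. Neurog2 alone averaged 24.5 RPKM in homozygous and 62.4 RPKM in control cortex, so its fall weighs heavily in this sum. Of 14 markers of excitatory neurons 4 fell and 4 rose, and of 13 of radial glia 4 fell and 1 rose. Their sums were 563.7 to 688.2 and 1856 to 1947 RPKM in homozygous libraries, against 676.8 to 786.8 and 1989 to 2172 RPKM in control libraries. The radial glia marker Fabp7 alone averaged 736 RPKM in homozygous and 995 RPKM in control cortex. Its fall weighs heavily in the radial glia sum, which is therefore no measure of the list as a whole.

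Markers of some other cells rose in homozygous cortex, where 14.4% of all genes rose. Of 8 tested Cajal-Retzius markers 6 rose, with sums of 57.3 to 69.2 RPKM in homozygous and 39.2 to 44.6 RPKM in control libraries. Reln, of the same list, was not among them (log2 change -0.16; limma adjusted p = 0.148). Barhl2, which rose, is counted both here and among the diencephalon markers. All 4 tested markers of the diencephalon rose, with sums of 20.1 to 20.6 RPKM in homozygous and 10.8 to 11.6 RPKM in control libraries. The other 4 of the 8 listed, Gbx2, Barhl1, Foxb1 and Sim1, were below the filter, and Barhl1 was at 0 in every control library. Microglial markers rose in 5 of 10, with sums of 27.7 to 36.2 RPKM in homozygous and 20.2 to 25.3 RPKM in control libraries. Of 7 tested GABAergic markers 1 fell and 1 rose, 1 of 11 endothelial and pericyte markers rose, none of 8 meningeal markers was called, and 2 of 8 blood markers fell, with sums of 2233 to 2583 RPKM in homozygous and 2704 to 3334 RPKM in control libraries. Their part in the levels of the signalling genes was not tested.

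Within groups the libraries differed alike for most of these genes. Control replicate 1 was the lowest control library in 9 of the 10 genes and control replicate 3 the highest in 9, as in 56.67% and 63.11% of all genes tested. Among the homozygous libraries replicate 3 was the highest in 8 of 10, as in 47.72% of all genes. Xist, the transcript of the inactive X chromosome, was above 1 RPKM in 1 of 3 homozygous, 0 of 3 heterozygous and 2 of 3 control libraries. The 7 calls remained with the Xist level as a covariate.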

How the data were processed

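Per the file headers, the authors deposited RPKM values of 30978 RefSeq transcripts for each of 9 libraries. The submitters' processing notes name CASAVA 1.8.2, TopHat 1.4.1 and the build mm9. The sources used here do not give the program that made the RPKM values, its annotation or its use of strand. Per the labels' protocols, ribosomal RNA was removed and the library protocol keeps strand. Overlapping and antisense genes are therefore uncertain.

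Transcripts were named from a RefSeq gene table (30507) and GENCODE (178), both on GRCm38, and 293 had no name. Spans are those of GRCm38. Each gene was represented by its transcript with the highest mean. All 9 libraries were fitted by genotype with limma 3.58.1 in R 4.3.3 (eBayes with trend) after log2(RPKM + 0.5), keeping genes whose mean reached 0.5 RPKM, and p-values were Benjamini-Hochberg adjusted over all genes tested and called under 0.05. Transcripts, and differences between transcripts of a gene, were fitted likewise. No 2 libraries held the same table. The files give no counts; low values lay within 0.1 of a whole read in 63.4% to 67.8% of cases, under the near-all share that a count test needs, so none was run. The number of reads limits the precision of low values, and errors given are between libraries.

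The members and lists were chosen with earlier results of these data known. Besides the 10 genes and their transcripts, the text names Sfpq, up to 3 called genes a list by smallest adjusted p, any gene called in heterozygous against control cortex, and the 3 genes most like 4 of the members. Others were named outside this rule, among them family relatives of the members, the list genes Rgs2, Rgs7, Prkcb and Rasgrp1, and single cell type markers. There were 21 alternatives: other pseudocounts, filters, scalings, transcripts and terms, and each replicate left out. The list of cortical identity markers is not reported here.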

Additional observations from a re-analysis of the deposited data

How the results depend on the processing

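The 7 genes called in homozygous against control cortex stayed called, in the same direction, in each of the 21 alternatives in which they were tested; a minimum mean of 2 RPKM left 7 of the 10 genes, of which 5 were called, and dropped Prkca, Pde4d and Adcy1. Plcb1 ranged from -2.33 to -1.73 and Pde1c from 0.66 to 0.90 on the log2 scale. Calls over all genes in heterozygous against control cortex numbered 1 with the 2 groups alone, and 0 to 1 when a replicate was left out. Called transcript pairs numbered 4 with the 2 groups alone and 4 to 5 when a replicate was left out, against 7; the 4 are the early-ending transcripts of Pde1c.

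In heterozygous against control cortex, where no gene of the 10 was called, signs turned. With the Xist covariate the log2 change was -0.1131 for Itpr1, 0.0337 for Pde1c, -0.0436 for Pde4d, -0.0932 for Plcb1, -0.0396 for Plcb4, -0.0130 for Prkca and -0.0307 for Prkce. Pde1c was at 0.0158 with quantile normalization, 0.0038 with upper quartile scaling, 0.0311 with the longest coding transcript, and 0.0525, 0.0071 and 0.0149 without heterozygous replicate 2, control replicate 2 and control replicate 3. Itpr1 was at -0.0807, -0.0739 and -0.0031 without heterozygous replicate 3, control replicate 1 and control replicate 2. Plcb1 was at -0.0264 without control replicate 1, and Plcb4 at -0.0461 and -0.0110 without heterozygous replicate 3 and control replicate 3. Over the fits that leave out a replicate the ranges were -0.0807 to 0.1249 for Itpr1, -0.053 to 0.0525 for Pde1c, -0.0264 to 0.2555 for Plcb1 and -0.0461 to 0.0576 for Plcb4. The cause was not tested.

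The replicate numbers were not taken to pair the libraries, under a rule that every correlation of same-numbered deviations pass 0.1. These correlations were 0.404, 0.0685 and 0.322 between homozygous and control libraries and -0.0444 to 0.0995 in the other comparisons. No correlation between libraries of different numbers was set beside them, so the rule cannot exclude pairing. With the replicate number as a block, 7 of the 10 genes and 4429 of all genes (4170 without it) were called in homozygous against control cortex, 8 of the 10 genes against heterozygous cortex (Adcy1 added), and 4 transcript pairs. With 3 libraries a group, changes under about 0.2 on the log2 scale, such as those of Pde4b and Adcy1, lie within the 95% intervals of no change.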
